A study of Mus musculus with 24 samples.

Results

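The transcripts described here are 9 genes known to be induced by low oxygen in mammalian cells: Vegfa, Adm, Bnip3, Pdk1, Egln3, P4ha1, Car9, Ndrg1 and Ankrd37. They were taken by symbol from a table of 49705 gene entries, in which each symbol had 1 row, and the rule names them as known targets without a measured value. RNA-seq was performed on optic vesicle (OV) organoids grown from Rx-GFP K/I EB5 cells, a mouse embryonic stem cell (mESC) line carrying GFP in the Rax locus, so that GFP reports on the eye-field gene Rax. The 24 libraries form 8 groups with 3 replicates apiece. Live cells were taken without a GFP gate on day 0, day 1, day 2 and day 3, and were split into a GFP-negative and a GFP-positive group on day 4 and again on day 5. On day 0 dissociated mESCs were plated at 4500 cells a well in a low-adhesion plate, in GMEM with 1.5% knockout serum replacement per the labels (the study's methods assign the first organoids another medium), and growth factor-reduced Matrigel was added to 2% on day 1. All groups come from this 1 line with no other genotype or treatment, and each library pooled 24 organoids that were dissociated and sorted for live single cells. Per the study's methods the gates were wide: weakly fluorescent cells could fall in the GFP-negative group. The oxygen level of the cultures is not given in the sources used here. The comparisons below ask whether known hypoxia-inducible genes rose as the aggregates grew.

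In the presence of oxygen, prolyl hydroxylases (Egln1, Egln2 and Egln3) mark the hypoxia-inducible factor (HIF) alpha subunits Hif1a and Epas1 for degradation through the von Hippel-Lindau protein Vhl. When oxygen falls the alpha subunits persist, pair with Arnt or Arnt2 and bind a short DNA core, ACGTG or GCGTG, near their target genes. The control of HIF is largely at the level of protein, which RNA-seq does not measure, so the target transcripts are the usual RNA readout. Many of these targets also answer to growth factors, cell density, developmental signals and metabolic state.

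The promoters of the members are shown because the HIF core is the feature that the targets are known to share. RefSeq (build GRCm38.p6) gave an entry for 8 of the 9 members, and none was found for Ndrg1. Each window of 260 bases ran from 250 bases before the start to 10 bases after it, 5′ to 3′ along the gene, and was searched for ACGTG and GCGTG on both strands, with overlapping matches counted separately. At least 1 core was found in 7 of the 8 windows, against 39.7% of all 32851 promoter windows of this length. The form ACGTG was found in 5 of the 8, against 17.3% of all windows, and 3 or more cores in 3 of the 8, against 7.17%. These were Bnip3 with 5 matches, Ankrd37 with 4 and P4ha1 with 3, and they are printed below with Vegfa, which had 0 in this window and had the largest rise from day 1 to day 5. Capitals mark the cores on either strand, where CACGT and CACGC are the cores read on the opposite strand.
Bnip3 (chr7:138909497-138909756, minus strand): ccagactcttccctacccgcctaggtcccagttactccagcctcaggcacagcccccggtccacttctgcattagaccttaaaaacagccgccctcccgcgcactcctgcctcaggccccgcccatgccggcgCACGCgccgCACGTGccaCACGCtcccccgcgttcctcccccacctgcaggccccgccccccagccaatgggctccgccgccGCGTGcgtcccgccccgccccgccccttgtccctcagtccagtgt
Ankrd37 (chr8:45999841-46000100, minus strand): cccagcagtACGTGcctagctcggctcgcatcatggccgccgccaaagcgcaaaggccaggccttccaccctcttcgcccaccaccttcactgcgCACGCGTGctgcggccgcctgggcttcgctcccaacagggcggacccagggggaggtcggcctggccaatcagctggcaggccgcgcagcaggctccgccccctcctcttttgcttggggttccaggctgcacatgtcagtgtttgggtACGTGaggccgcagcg
P4ha1 (chr10:59323046-59323305, plus strand): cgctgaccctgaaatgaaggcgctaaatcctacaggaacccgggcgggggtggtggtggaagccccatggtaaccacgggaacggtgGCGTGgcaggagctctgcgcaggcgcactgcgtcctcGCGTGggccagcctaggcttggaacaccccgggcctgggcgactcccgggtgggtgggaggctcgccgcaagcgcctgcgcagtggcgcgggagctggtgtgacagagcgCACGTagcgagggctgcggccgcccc
Vegfa (chr17:46032368-46032627, minus strand): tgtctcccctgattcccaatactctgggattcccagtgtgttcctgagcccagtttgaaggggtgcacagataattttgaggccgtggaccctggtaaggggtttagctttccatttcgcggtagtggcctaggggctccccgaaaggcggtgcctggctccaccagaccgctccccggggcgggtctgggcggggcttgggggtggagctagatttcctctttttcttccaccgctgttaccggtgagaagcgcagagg
Of the other windows, Adm and Pdk1 held 2 cores each, and Egln3 and Car9 held 1 each. The RefSeq start of Ankrd37 lies 5857 bases inside the span that the table gives for the gene. These matches are a description of the letters only, and enhancers farther away were not searched.

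All 9 members are protein-coding genes, and all 9 were among the 21005 genes with a normalized count of at least 10 in at least 3 libraries. A normalized count is the read count estimated for a gene after scaling each library by its size factor. It is not divided by transcript length, so levels are compared between groups and not between genes. Library totals lay between 39849111 and 51587535 normalized counts. Spearman correlations between replicates were 0.979 to 0.993 in 22 pairs and 0.953 to 0.954 in the 2 pairs that hold day 0 replicate 1. That library stood apart and is described first among the results. Pou5f1, a pluripotency factor, was at 36698 ± 1392 normalized counts (SD, n = 3) on day 0. Rax was at 975 ± 38.4 in the GFP-negative and 9559 ± 436 in the GFP-positive group of day 4, the order that the gate labels state. Adm, Bnip3, Car9, Ndrg1 and Ankrd37 overlap genes on the opposite strand, and whether reads were counted by strand is not given in the sources used here, so their levels carry that uncertainty.

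**Figure D1:**
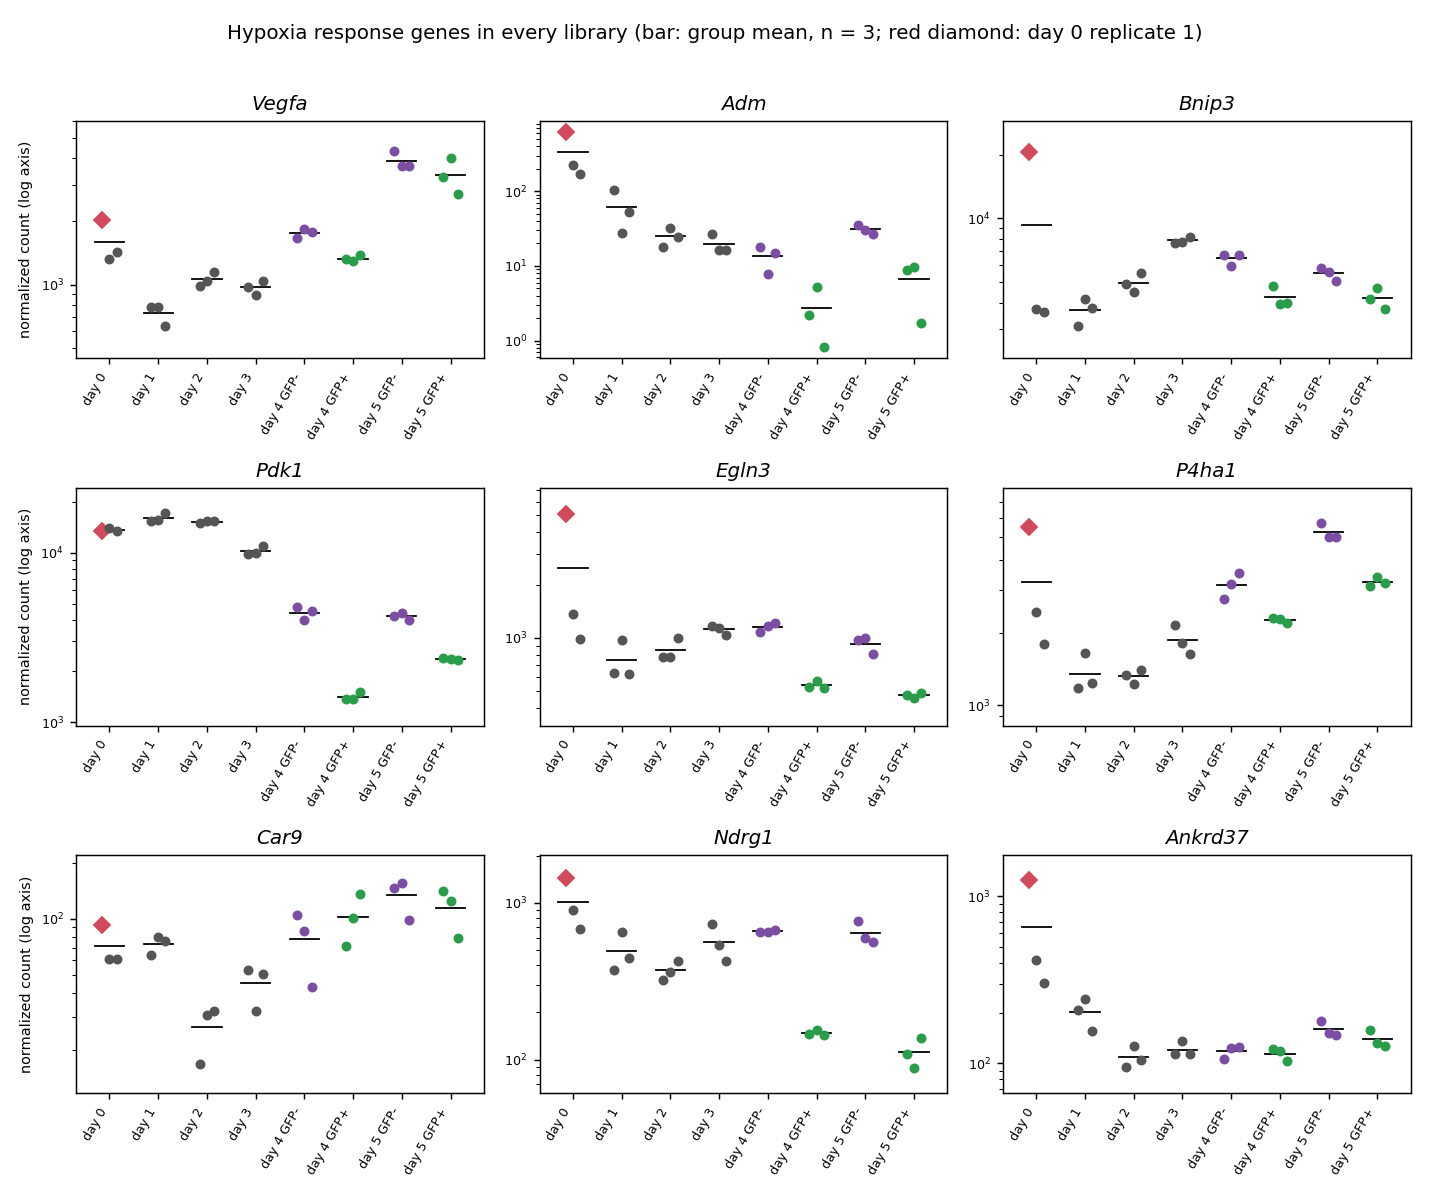
Normalized counts (log axis) of the 9 genes in each of the 24 libraries, ordered by group, with a bar at the group mean (n = 3); grey marks unsorted days, purple GFP-negative, green GFP-positive and the red diamond day 0 replicate 1. Bnip3 was at 20608 in that library and at 3611 to 3727 in its group mates, whereas Vegfa and P4ha1 climbed between day 1 and day 5 and Pdk1 fell.

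Day 0 replicate 1 carried the highest level of Bnip3, Egln3, Ankrd37, Adm and Ndrg1 in the series. Bnip3, a mitochondrial outer membrane protein that promotes mitophagy, was at 20608 normalized counts in this library and at 3727 and 3611 in day 0 replicates 2 and 3. The first value was 5.62 times the mean of the other two. Egln3 was at 5123 in replicate 1 and at 1375 and 984 in replicates 2 and 3, a ratio of 4.34. For Ankrd37 the ratio was 3.53, for Adm 3.18, for P4ha1 2.60, for Ndrg1 1.82, for Car9 1.52 and for Vegfa 1.48. Pdk1 had a ratio of 0.977, the lowest of the 9.

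Relative to its group mates on the log2 scale, the median of the 9 members in day 0 replicate 1 was 1.39, and 5 of the 9 were above 1. Over all genes tested the median was 0.00, with 14.4% above 1 and 15.2% below −1. For Bnip3, 1.31% of all genes stood as far or farther above their group mates in this library, and for Egln3 2.19%. A further list of 36 hypoxia-inducible genes had a median of 0.84 in this library, with 15 of 36 above 1 and 0 below −1. Outside day 0 the median of the members in a library lay between −0.28 and 0.27. Most comparisons of the members with day 0 are therefore given with and without this library. Those of Egln1 and of the further gene lists on day 5 against day 0 include it. Because the spread was estimated over all groups together, removing this library also narrowed the errors of the other comparisons. What set this library apart was not tested.

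**Figure D2:**
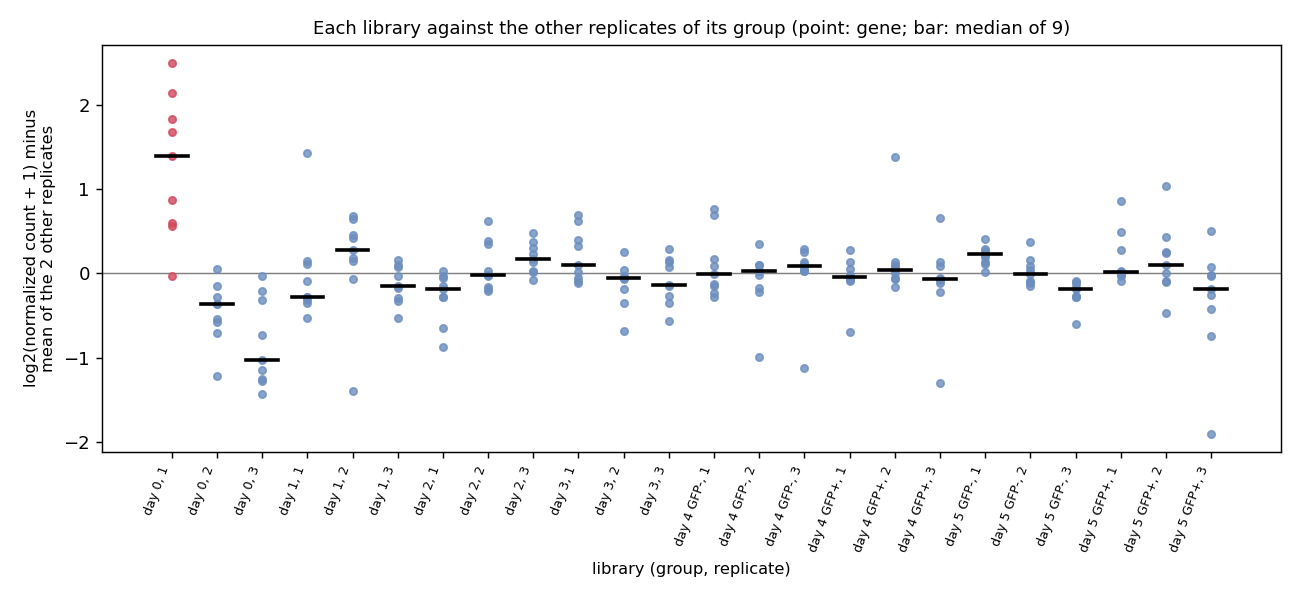
Log2(normalized count + 1) of each of the 9 genes in a library minus the mean of the other 2 replicates of its group, with a bar at the median of the 9 genes. Day 0 replicate 1, in red, had a median of 1.39, while the medians outside day 0 lay between −0.28 and 0.27.

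Vegfa encodes the growth factor that drives blood vessel growth and is among the best-known HIF targets. Its level was lowest on day 1 and highest on day 5. Normalized counts were 2034, 1327 and 1428 on day 0, 781, 781 and 636 on day 1, 988, 1040.4 and 1145 on day 2, and 977, 890.2 and 1043 on day 3. They were 1659, 1839 and 1785 in GFP-negative and 1321, 1290.3 and 1383 in GFP-positive cells on day 4, and 4312, 3684 and 3658 in GFP-negative and 3261, 4001 and 2703 in GFP-positive cells on day 5. All 6 day 5 libraries were above every earlier library, and the gates overlapped on day 5.

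From day 1 to day 5 Vegfa rose 5.30-fold in GFP-negative cells (log2 fold change 2.41 ± 0.15, SE; limma with Benjamini-Hochberg adjustment, adjusted p = 1.6e-11) and 4.49-fold in GFP-positive cells (2.17 ± 0.15, adjusted p = 4.7e-11). The rise fell in several steps. Between day 1 and day 2 the log2 fold change was 0.53 ± 0.15, and between day 3 and day 4 it was 0.86 ± 0.15 in GFP-negative and 0.46 ± 0.15 in GFP-positive cells. The largest daily step was from day 4 to day 5, at 1.14 ± 0.15 in GFP-negative and 1.30 ± 0.15 in GFP-positive cells (limma, Benjamini-Hochberg adjusted p = 2.5e-05 and 4e-06). Against day 0, which was above day 1, day 5 was higher by 1.30 ± 0.15 and 1.06 ± 0.15. Without day 0 replicate 1 these differences were 1.49 ± 0.13 and 1.25 ± 0.13.

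Adm encodes adrenomedullin, a secreted vasodilator peptide. Its level was highest on day 0 and reached a few counts per library in GFP-positive cells. Normalized counts were 625, 224 and 169.5 on day 0, 104, 27.5 and 52.4 on day 1, 17.7, 32.6 and 24.4 on day 2, and 27.0, 16.3 and 16.3 on day 3. They were 18.0, 7.75 and 14.8 in GFP-negative and 2.20, 5.29 and 0.828 in GFP-positive cells on day 4, and 35.3, 30.6 and 26.8 in GFP-negative and 8.81, 9.62 and 1.74 in GFP-positive cells on day 5. On each of these days all 3 GFP-positive libraries were below all 3 GFP-negative libraries. The GFP-negative libraries of day 5 all lay above those of day 4.

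Between day 0 and day 3 Adm had a log2 fold change of −3.83 ± 0.58 (limma, Benjamini-Hochberg adjusted p = 1.5e-05), and of −3.27 without day 0 replicate 1. In GFP-positive cells on day 5 it was lower than on day 1 by a log2 difference of −3.04 ± 0.58 (limma, Benjamini-Hochberg adjusted p = 1e-04). The same comparison of the GFP-negative group gave −0.77 ± 0.58 and did not pass the test. In the GFP-positive libraries, with a few reads each, the fold depends on the value of 1 that was added before taking logs.

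Bnip3 was higher in each day 3 library than in any library of days 1 and 2. Normalized counts were 3125, 4157 and 3793 on day 1, 4882, 4487 and 5509 on day 2, and 7686, 7775 and 8175 on day 3. They were 6739, 5965 and 6745 in GFP-negative and 4805, 3942 and 4008 in GFP-positive cells on day 4, and 5859, 5604 and 5056 in GFP-negative and 4177, 4702 and 3719 in GFP-positive cells on day 5. The groups of days 1, 2 and 3 did not overlap, and neither did the gates on either day. The log2 fold change between day 2 and day 3 was 0.67, with a limma Benjamini-Hochberg adjusted p of 0.27 in the fit of all libraries and 0.00016 without day 0 replicate 1. Its standard error was 0.38 in the first fit and 0.11 in the second. Against day 0, the day 3 difference was 0.27 with all libraries and 1.10 ± 0.12 (adjusted p = 2.5e-07) without that library, so the value turned on 1 library. On day 5 the difference from day 1 was 0.58 in GFP-negative and 0.19 in GFP-positive cells, and neither passed the test in the fit of all libraries. Without day 0 replicate 1 the limma Benjamini-Hochberg adjusted p of the GFP-negative difference was 9.6e-05, and that of the GFP-positive one 0.14.

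Pdk1 encodes a pyruvate dehydrogenase kinase, which holds pyruvate back from the mitochondrial citric acid cycle. It fell, and its replicates were tight. Normalized counts were 13414, 13990.4 and 13468 on day 0, 15354, 15541 and 17217 on day 1, 14887, 15403 and 15408 on day 2, and 9855, 9998 and 10934 on day 3. They were 4773, 3988 and 4511 in GFP-negative and 1364, 1376 and 1509 in GFP-positive cells on day 4, and 4238, 4381 and 4008 in GFP-negative and 2381, 2356 and 2319 in GFP-positive cells on day 5. GFP-positive cells were below GFP-negative cells on both days with no overlap.

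Pdk1 had a log2 fold change of −0.57 ± 0.08 between day 2 and day 3 (limma, Benjamini-Hochberg adjusted p = 9.8e-05). From day 3 to day 4 it fell by 2.86 ± 0.08 in GFP-positive cells (adjusted p = 5.4e-16) and by 1.22 ± 0.08 in GFP-negative cells (adjusted p = 1.9e-09), by the same limma fit with Benjamini-Hochberg adjustment. From day 4 to day 5 it then rose by 0.73 ± 0.08 in GFP-positive cells (adjusted p = 4e-06). On day 5 its level in GFP-positive cells was 0.147 times, and in GFP-negative cells 0.263 times, the level of day 1.

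Egln3 encodes a HIF prolyl hydroxylase that is itself a HIF target. Normalized counts were 631, 980.1 and 626 on day 1, 776, 779 and 1006 on day 2, and 1172, 1141 and 1046 on day 3. They were 1079.9, 1176 and 1222 in GFP-negative and 524, 571 and 517 in GFP-positive cells on day 4, and 977, 995 and 815 in GFP-negative and 474, 452 and 487 in GFP-positive cells on day 5. The gates did not overlap on either day. The GFP-positive minus GFP-negative log2 difference was −1.11 ± 0.35 on day 4 (limma, Benjamini-Hochberg adjusted p = 0.035) and −0.97 ± 0.35 on day 5 (adjusted p = 0.066). Without day 0 replicate 1, whose Egln3 value widened the shared spread, the same differences had limma Benjamini-Hochberg adjusted p-values of 1.3e-05 and 5.4e-05.

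P4ha1 encodes the catalytic subunit of collagen prolyl 4-hydroxylase, which modifies collagen in the endoplasmic reticulum. Normalized counts were 5521, 2445 and 1802 on day 0, 1177, 1646 and 1234 on day 1, 1341, 1226 and 1405 on day 2, and 2155, 1815 and 1636 on day 3. They were 2767, 3185 and 3534 in GFP-negative and 2315, 2273 and 2206 in GFP-positive cells on day 4, and 5708, 4982 and 5007 in GFP-negative and 3123, 3402 and 3231 in GFP-positive cells on day 5. The day 1 and day 2 groups overlapped. From day 3 on, each group lay above the group of the day before (in the same gate on day 5), and the gates were apart on both days. From day 1 to day 5 P4ha1 rose 3.90-fold in GFP-negative cells (log2 1.96 ± 0.25; limma, Benjamini-Hochberg adjusted p = 6.8e-07). The rise was 2.43-fold in GFP-positive cells (1.28 ± 0.25, adjusted p = 0.00012 by limma with Benjamini-Hochberg adjustment). Against day 0 the log2 differences were 0.85 ± 0.25 in GFP-negative and 0.17 ± 0.25 in GFP-positive cells, with overlapping groups (limma, Benjamini-Hochberg adjusted p = 0.0054 and 0.58). Without day 0 replicate 1 they were 1.31 ± 0.15 and 0.63 ± 0.15 (limma, Benjamini-Hochberg adjusted p = 1.2e-07 and 0.00076).

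Car9 encodes a membrane carbonic anhydrase that helps cells export acid. It was a low transcript with overlapping groups on days 4 and 5. Normalized counts were 92.6, 61.4 and 60.7 on day 0, 64.0, 79.8 and 76.6 on day 1, 16.8, 30.7 and 32.2 on day 2, and 53.3, 32.0 and 50.6 on day 3. They were 105, 86.1 and 43.2 in GFP-negative and 71.7, 101 and 135 in GFP-positive cells on day 4, and 146, 156 and 99.1 in GFP-negative and 140.4, 125 and 79.0 in GFP-positive cells on day 5. Between day 1 and day 2 its log2 fold change was −1.48 ± 0.34 (limma, Benjamini-Hochberg adjusted p = 0.0042). In GFP-negative cells on day 5 it stood 0.83 ± 0.34 above day 1 (limma, Benjamini-Hochberg adjusted p = 0.042), and in GFP-positive cells 0.60 ± 0.34 above it (adjusted p = 0.14).

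Ndrg1 encodes a stress-responsive protein linked to cell differentiation. It was lowest in GFP-positive cells. Normalized counts were 1439, 898 and 686 on day 0, 375, 655 and 447 on day 1, 324, 365 and 423 on day 2, and 735, 536 and 426 on day 3. They were 656, 652 and 668 in GFP-negative and 146, 155 and 144 in GFP-positive cells on day 4, and 770.1, 595 and 564 in GFP-negative and 108, 87.8 and 138 in GFP-positive cells on day 5. All 6 GFP-positive libraries were below the other 18 libraries. The GFP-positive level was 0.227 times the GFP-negative level on day 4 (log2 −2.14 ± 0.25; limma, Benjamini-Hochberg adjusted p = 1.6e-06). On day 5 it was 0.173 times that level (−2.53 ± 0.25, adjusted p = 1.3e-07, limma with Benjamini-Hochberg adjustment).

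Ankrd37 encodes an ankyrin repeat protein. Normalized counts were 1259, 413 and 302 on day 0, 209, 242 and 155 on day 1 and 94.9, 127 and 104 on day 2. In the 15 libraries from day 3 on they lay between 103 and 179, and the gates overlapped on both days. Between day 0 and day 3 the log2 fold change was −2.16 ± 0.32 (limma, Benjamini-Hochberg adjusted p = 1.4e-05), and −1.55 without day 0 replicate 1.

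Between day 0 and day 1, 6 members fell. Of the 9, 6 were lower on day 1 than on day 0 at an adjusted p under 0.05 and 0 were higher, against 4.79% and 5.23% of all genes tested. The 6 were Vegfa, Adm, Egln3, P4ha1, Ndrg1 and Ankrd37, and their day 1 levels ran from 0.188 times (Adm) to 0.499 times (Ndrg1) those of day 0. None reached the stricter call used here, which asked for an adjusted p below 0.001 and a log2 change of more than 1.5 in size and which 0.738% of genes passed. Egln3 and Ankrd37 reached it once day 0 replicate 3, the lowest of that group, was left out, at log2 fold changes of −1.86 and −1.86. When day 0 replicate 1 was left out the count at 0.05 was again 6, where 14% of genes passed in either direction, with log2 fold changes from −1.85 (Adm) to −0.65 (P4ha1). The median over the 9 was then −0.67, against −1.10 with that library and 0.00 over all genes. Bnip3 moved from −0.83 to 0.00. The median log2 fold change of 9 immediate-early and heat shock genes, which respond to handling and stress, was −1.02 in the same comparison, with 3 lower and 0 higher at an adjusted p under 0.05. When day 0 replicate 1 was left out it was −1.18, with 5 lower and 0 higher. Their summed level was 10564 to 18418 on day 0 and 8627 to 9584 on day 1, and their part in the change of the members was not tested. The labels call the day 0 samples pooled organoids although day 0 is the day of plating, so the material collected that day is uncertain in every comparison with it.

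Over the next days few members passed a test. The median log2 fold change of the 9 was −0.07 from day 1 to day 2, against −0.01 over all genes. From day 2 to day 3 it was 0.40, against −0.02. Between day 1 and day 2, and between day 2 and day 3, 0 members were called, against 1.47% and 1% of all genes. At an adjusted p under 0.05, Vegfa was higher and Car9 lower from day 1 to day 2, and Pdk1 was lower from day 2 to day 3, where 16.6% and 14.4% of genes passed. Leaving out day 0 replicate 1, Bnip3 was also higher and Ankrd37 also lower from day 1 to day 2, where 24.3% of genes passed. In the same fit Bnip3, P4ha1 and Ndrg1 were higher from day 2 to day 3 at that threshold and Pdk1 lower, where 24.3% of genes passed. Against day 0, 2 members were called lower on day 3, Adm and Ankrd37, against 12% of genes called in either direction. Neither was called when only these 2 groups were fitted (limma, Benjamini-Hochberg adjusted p = 0.0016 and 0.016).

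From day 3 to day 4, GFP-positive cells had 2 members called lower, Pdk1 and Ndrg1, and 0 higher, against 10.7% of all genes. In GFP-negative cells 0 were called, against 2.88%. At an adjusted p under 0.05 Vegfa and P4ha1 were higher and Pdk1 was lower in GFP-negative cells, where 18.5% of genes passed. In GFP-positive cells Vegfa and Car9 were higher at that threshold, and Adm, Pdk1, Egln3 and Ndrg1 were lower, where 37.9% passed. The p of Adm lay beside the stricter limit, and without day 0 replicate 1 it was called too. Bnip3 also fell in that fit (log2 −0.90; limma, Benjamini-Hochberg adjusted p = 9.2e-07), where 46.4% of genes passed 0.05. From day 4 to day 5, 0 members were called in either gate, against 1.49% of genes for the GFP-positive comparison and 1.27% for the GFP-negative one. At an adjusted p under 0.05, Vegfa and Pdk1 were higher in GFP-positive cells, where 9.8% of genes passed, and Vegfa in GFP-negative cells, where 10.2% passed, with 0 members lower. P4ha1 was also higher at that threshold in both gates without day 0 replicate 1, where 15.4% and 18.1% of genes passed. The median log2 fold change of the 9 was 0.28 and 0.43, against 0.00 and 0.01 over all genes.

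Over the whole growth of the aggregates, from day 1 to day 5, the members moved in both directions. In GFP-positive cells Vegfa was called higher and Adm, Pdk1 and Ndrg1 lower, which is 4 of 9 where 26.3% of all genes were called. In GFP-negative cells Vegfa and P4ha1 were called higher and Pdk1 lower, 3 of 9 where 21.5% of genes were called. At an adjusted p under 0.05, 2 members were higher and 3 lower in GFP-positive cells, where 28.6% and 31.9% of genes were. In GFP-negative cells 3 were higher and 1 lower at that threshold, where 28.5% and 30.1% were. Over the 9, the median log2 fold change was 0.41 in the GFP-negative and −0.52 in the GFP-positive comparison, against −0.04 and −0.05 over all genes. These 2 comparisons share the day 1 libraries. All of these calls held without day 0 replicate 1. Cell identity changed over the same days: the summed level of 6 pluripotency markers was 107174 to 131551 on day 1, and that of 5 eye-field markers went from 170 to 195 on day 1 to 54804 to 57307 in GFP-positive and 8351 to 9094 in GFP-negative cells on day 5. These changes cannot be told apart from time. Against day 0 instead, 5 members were called lower in GFP-positive cells (Adm, Pdk1, Egln3, Ndrg1 and Ankrd37) and 0 higher, where 26.2% of genes were called. In GFP-negative cells Adm, Pdk1 and Ankrd37 were called lower, where 21.7% were called. Without day 0 replicate 1 these counts were 3 and 2, where 26.3% and 22.3% of genes were called. Egln3 and Ankrd37 lost their calls in the GFP-positive group, and Ankrd37 also in the GFP-negative group. Fitting only the groups compared gave 3 and 1 calls, and the share of all genes called in those fits was not computed.

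**Figure D3:**
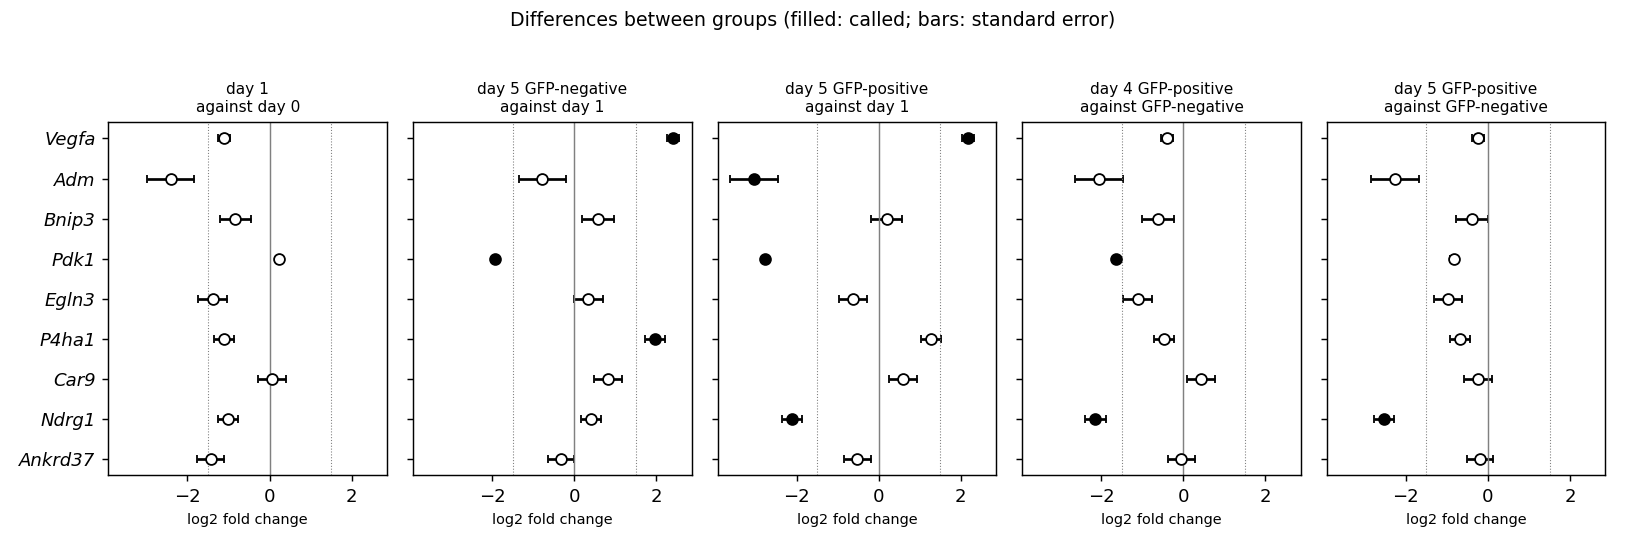
Log2 fold changes of the 9 genes (x axis) with their standard errors for 5 comparisons in the fit of all 24 libraries; filled points were called, with the log2 limits of 1.5 in either direction drawn as dotted lines. Vegfa stood at 2.41 and 2.17 on day 5 against day 1 in the 2 gates, while Pdk1 stood at −1.93 and −2.77.

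Between the gates, every called member was lower in GFP-positive cells. On day 4 Pdk1 and Ndrg1 were called, against 3.96% of all genes, and on day 5 Ndrg1, against 5.01%. This direction was that of most called genes: 3.63% of all genes were called lower on day 4 and 4.61% on day 5, and 0.328% and 0.4% higher. At an adjusted p under 0.05 the counts were 4 on day 4 (Adm, Pdk1, Egln3 and Ndrg1) and 3 on day 5 (Adm, Pdk1 and Ndrg1), all lower, where 11.3% and 12.3% of genes were lower. They were 7 and 6, again all lower, without day 0 replicate 1, where 22.4% and 22.7% of genes passed in either direction. The gate difference of Pdk1 changed between the days by 0.80 ± 0.12 (limma, Benjamini-Hochberg adjusted p = 0.00086), short of the fold needed for a call, which 0.109% of genes reached. In bulk samples fewer cells that express a gene and less RNA per cell cannot be told apart. Markers of other cell types also differed between the gates. The summed level of 6 endothelial markers was 599 to 935 in GFP-negative and 86.5 to 231 in GFP-positive libraries on day 5. That sum was higher on day 1, at 3339 to 3652. Cdh5, an endothelial cadherin, was at 167 ± 56.2 and 6.81 ± 1.35 (SD, n = 3) in the day 5 gates. There the sum of 5 extra-embryonic endoderm markers was 9083 to 10001 and 1952 to 2756, and that of 6 mesendoderm markers 3203 to 4194 and 203 to 285. The eye-field markers went the other way (above). The summed level of 6 pluripotency markers was 6037 to 7296 and 409 to 539.7 in the same groups. The part of these cell types in the gate differences of the members was not tested.

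The genes of the HIF pathway itself moved apart from each other. Hif1a was at 6417 ± 158 on day 1, 8308 ± 2207 on day 3, and 6119.6 ± 1265 and 6667 ± 607 in GFP-negative and GFP-positive cells on day 5 (SD, n = 3). It was called in 0 of the 15 comparisons, in which 0.109% to 26.3% of all genes were called. Epas1, the alpha subunit known as HIF2, fell from 5078 ± 754 on day 1 to 1008 ± 65.2 on day 2, a log2 fold change of −2.32 ± 0.33 (limma, Benjamini-Hochberg adjusted p = 4.6e-05). On day 5 it was at 1345 ± 191 in GFP-negative and 98.9 ± 25.0 in GFP-positive cells, a log2 difference of −3.77 ± 0.33 (limma, Benjamini-Hochberg adjusted p = 3.1e-08). Hif3a was at 583 ± 75.3 on day 1 and 1653 ± 75.7 on day 3. Of the partners, Arnt2, which is known for its role in neural tissue, rose from 778 ± 155 on day 1 to 3608 ± 275 in GFP-positive cells on day 5 (log2 2.23 ± 0.20; limma, Benjamini-Hochberg adjusted p = 3.5e-09). Arnt was at 4558 ± 943 and 2904 ± 139 in the same groups.

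Egln1, the main HIF prolyl hydroxylase and itself known to be induced by HIF, rose from 849 ± 52.2 on day 1 to 4076 ± 191 in GFP-negative and 3767 ± 137 in GFP-positive cells on day 5. These log2 fold changes were 2.26 ± 0.19 and 2.15 ± 0.19 (limma, Benjamini-Hochberg adjusted p = 1.3e-09 and 1.9e-09). Against day 0, where Egln1 was at 1738, they were 1.32 ± 0.19 and 1.20 ± 0.19 (limma, Benjamini-Hochberg adjusted p = 3.2e-06 and 8.4e-06), short of the fold needed for a call. There 0 of the 9 oxygen-sensing genes were called, against 21.7% (GFP-negative) and 26.2% (GFP-positive) of all genes. Egln2 stayed between group means of 2100.3 and 2694. Egln3, the third of the family and a member, was below its day 3 level in GFP-positive cells (above). Among these 9 oxygen-sensing and HIF turnover genes, Egln1 was the 1 called on day 5 against day 1 in either gate, against 26.3% of all genes called for the GFP-positive comparison and 21.5% for the GFP-negative one. Vhl was at 825 ± 50.8 on day 1, and 1423 ± 122 and 1760.0 ± 235 in GFP-negative and GFP-positive cells on day 5. The asparaginyl hydroxylase Hif1an had group means from 3448 to 4464. Cited2, a HIF-induced inhibitor of HIF, was at 5059 ± 903 in GFP-negative and 2393 ± 114 in GFP-positive cells on day 4. The E3 ligase parts Elob, Eloc, Cul2 and Rbx1 were called in 0 of the 15 comparisons, in which 0.109% to 26.3% of all genes were called.

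**Figure D4:**
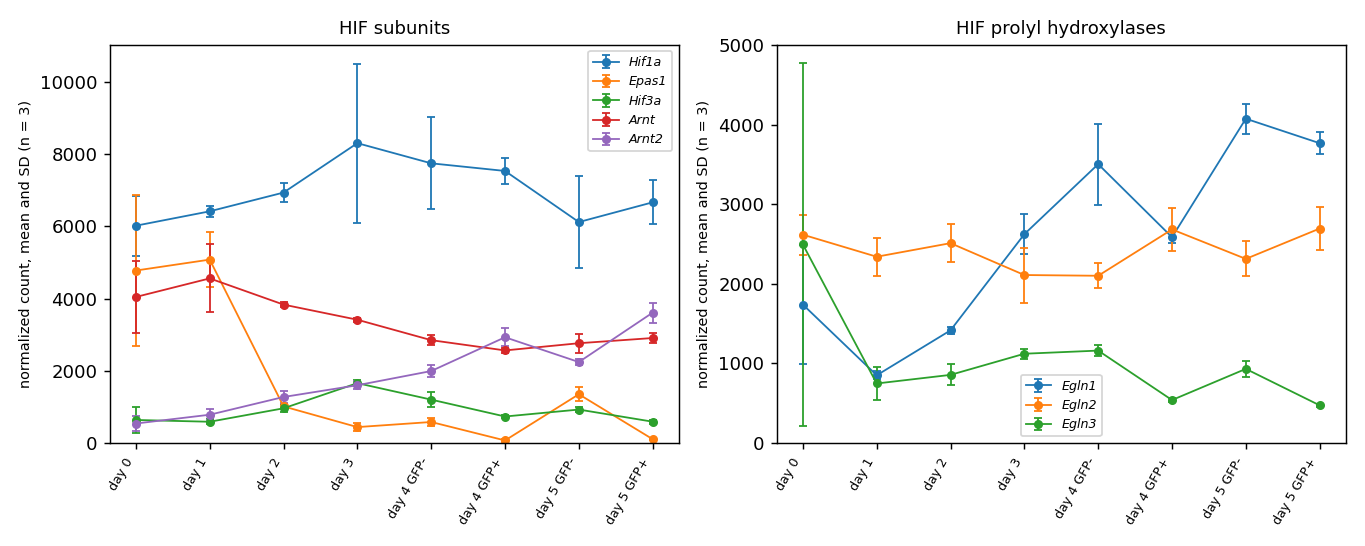
Normalized counts (mean and SD, n = 3) of the HIF subunits, left, and the HIF prolyl hydroxylases, right, in the 8 groups; lines only join groups in the order shown. Epas1 dropped from 5078 on day 1 to 1008 on day 2, Egln1 climbed from 849 on day 1 to about 4076 on day 5, and the wide bar of Egln3 on day 0 comes from day 0 replicate 1.

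Relatives of the members gave context for the single genes. In the family of Vegfa, 5 of 9 ligands and receptors were called higher and 0 lower in GFP-positive cells on day 5 against day 1, and 6 and 0 in GFP-negative cells. Of all genes, 11.3% were called higher and 15% lower in the first comparison, and 11.1% and 10.4% in the second. Against day 0 the counts were 5 and 1 in the GFP-positive group and 5 and 0 in the GFP-negative group, where 11.2% and 14.9%, and 11.3% and 10.4%, of genes were called. Nrp1, a co-receptor of VEGF, rose from 18.1 ± 3.38 on day 1 to 1174 ± 145 in GFP-negative and 525 ± 24.3 in GFP-positive cells. Vegfc, the lymphatic growth factor, was at 249 ± 132 on day 1 and 1844 ± 118 in GFP-positive cells on day 5. Kdr, the main VEGF receptor, was at 151 ± 12.4 on day 1, and 1174 ± 274 and 693 ± 69.9 in GFP-negative and GFP-positive cells on day 5. Flt1, the decoy-like receptor, differed between the day 5 gates by −3.93 ± 0.29 (limma, Benjamini-Hochberg adjusted p = 3.9e-09).

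Among Pdk1 and its regulators, Pdk4 fell with Pdk1, from 238 ± 71.2 on day 1 to 31.8 ± 9.69 in GFP-negative and 7.31 ± 1.85 in GFP-positive cells on day 5, and both falls were called. It was the 1 gene called of the 6 in that list in both comparisons, where 21.5% (GFP-negative) and 26.3% (GFP-positive) of all genes were called. In the carbonic anhydrase list Car14 rose from 690.5 ± 225 on day 1 to 6633 ± 197 in GFP-positive cells on day 5 (log2 3.32 ± 0.16; limma, Benjamini-Hochberg adjusted p = 2.2e-13), while Car2 fell (−2.03 ± 0.13, adjusted p = 1.4e-11). Ndrg2, a relative of Ndrg1, was called lower in the GFP-positive group too, at 177 ± 31.3 against 1238 ± 140.1 on day 4. Calcrl, the receptor of adrenomedullin, rose from 8.12 ± 7.02 on day 1 to 298 ± 47.3 and 255 ± 64.7 on day 5. Of 5 ligand and receptor genes tested in that list, 2 (Calcrl and Ackr3) were called higher and 1 (Adm2) lower in the GFP-positive comparison. There 11.3% of all genes were called higher and 15% lower, and the median log2 fold change of the list was −0.59. In the GFP-negative comparison the same 2 were called higher and 0 lower, where 11.1% and 10.4% of all genes were, with a median of 0.02. Adm itself was on day 5 at 30.9 ± 4.25 and 6.72 ± 4.33 in GFP-negative and GFP-positive cells. Of 4 mitophagy genes beside Bnip3, 0 were called in any of the 15 comparisons, in which 0.109% to 26.3% of all genes were called.

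The other 36 hypoxia-inducible genes were mostly lower on day 1 than on day 0 where they passed the test, and more of them were higher than lower on day 5 against day 1. Against day 0 in GFP-positive cells, more were higher than lower among the called genes but not at an adjusted p under 0.05. On day 1 against day 0, 15 were lower and 1 higher at an adjusted p under 0.05, where 4.79% and 5.23% of all genes were. Leaving out day 0 replicate 1 gave 14 and 4, where 14% of genes passed in either direction. From day 1 to day 5, 11 were called higher and 4 lower in GFP-positive cells, where 11.3% and 15% of all genes were called higher and lower. In GFP-negative cells 10 were called higher and 3 lower, against 11.1% and 10.4%. The counts at an adjusted p under 0.05 were 18 higher and 7 lower for the GFP-positive comparison, where 28.6% and 31.9% of genes were, and 22 and 4 for the GFP-negative one, where 28.5% and 30.1% were. Their median log2 fold change was 0.56 and 0.89, against −0.05 and −0.04 over all genes. Against day 0, 12 were higher and 13 lower at 0.05 in the GFP-positive group, where 29.3% and 32.1% of genes were, and the median was −0.02. At the stricter call 7 were higher and 5 lower, where 11.2% and 14.9% of genes were. For the GFP-negative group 14 were higher and 8 lower at 0.05, where 29% and 30.3% were, and the median was 0.15. There 7 were called higher and 4 lower, where 11.3% and 10.4% of genes were. The largest rises were in Edn1, the vasoconstrictor endothelin, Cxcr4, a chemokine receptor, and Ppp1r3c, a glycogen-targeting subunit, in GFP-positive cells, and in Edn1, Cxcr4 and Vldlr, a lipoprotein receptor, in GFP-negative cells. Edn1 was at 10.9 ± 1.68 on day 1 and 2914 ± 48.2 in GFP-positive cells on day 5. The genes called lower in both gates included Angptl4 (a lipase inhibitor) and Hmox1 (heme oxygenase). Hmox1 was at 4338 ± 316 on day 1, and 1047 ± 159 and 829.5 ± 22.0 in GFP-negative and GFP-positive cells on day 5.

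Of 16 hypoxia-inducible glycolysis genes, 0 were called higher from day 1 to day 5 in either gate, where 11.3% (GFP-positive) and 11.1% (GFP-negative) of all genes were. Pfkp, a phosphofructokinase, was called lower in GFP-positive cells, at 14462 ± 4668 on day 1 and 2035 ± 215 on day 5, where 15% of genes were called lower. At an adjusted p under 0.05, 4 of the 16 were higher and 5 lower in GFP-positive cells, where 28.6% and 31.9% of all genes were. In GFP-negative cells 7 were higher and 3 lower, where 28.5% and 30.1% were. Over the list the median log2 fold change was −0.11 for the GFP-positive comparison and 0.11 for the GFP-negative one, against −0.05 and −0.04 over all genes.

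The 9 members did not share 1 profile. Over the 24 libraries Pearson's r between pairs of members, on log2(normalized count + 1), ran from −0.60 to 0.88 with a median of 0.29 over 36 pairs, and 26 were positive. Without day 0 replicate 1 the median was 0.05 and 22 were positive. P4ha1 and Vegfa were the most alike pair with all libraries (0.88, and 0.91 without that library), followed by Egln3 and Ndrg1 (0.85 and 0.92). Egln3 and Bnip3 were at 0.80 with it and 0.57 without. These values describe libraries that share groups and carry no test.

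Genes outside the members whose profile was most like each member were sought by Pearson's r over the same 24 libraries among 10093 genes. For Vegfa they included Zic1 (0.93), for Pdk1 they were Zfp36 and Etv5 (0.98 each), and for P4ha1 Qsox1 (0.93) and Serpinh1 (0.92). Adm was most like Bcl3 and Ier3 (0.94 each), Egln3 most like Rhoc (0.92) and Anxa2 (0.91), and Ndrg1 most like Alpk3 (0.95) and A2m (0.94). For Ankrd37 they were Noxo1 (0.93) and Capns1 (0.91), for Car9 Clip4 (0.88) and Iqck (0.86), and for Bnip3 Acot13 (0.84) and Ndufa4l2 (0.82).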

How the data were processed

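RNA-seq of polyA RNA from OV organoids (TruSeq libraries) was analysed in 24 samples, grouped by the day and GFP gate in the sample labels. The authors pseudo-aligned reads with kallisto (0.43.1 in the submitters' processing notes) to an index of mm10 coding and non-coding RNA from Ensembl and scaled the estimates with DESeq2 size factors, so the deposited values are a normalized signal per gene, not counts. The table's columns of the authors' own gene calls were not used. Strandedness is not given in the sources used here. The labels give the serum replacement medium for all samples, whereas the study's methods assign it to knockout organoids and a chemically defined medium to the initial ones, so the medium is uncertain. Whole reads were not recovered: a whole multiple of 1 read, with a tolerance of 0.1, was seen for 45.8% to 76.4% of low values (20 reads or fewer). The implied depth was 36914158 to 54625637 reads, which limits mostly Adm and Car9.

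Genes at 10 or more in 3 or more libraries (21005) were tested with limma 3.58.1 in R 4.3.3 (trend) on log2(value + 1), with 1 fit of all 24 libraries and Benjamini-Hochberg adjustment over all genes within each of 15 comparisons. A fold change is on that log2(value + 1) scale, which understates the change of low genes. A call asked for an adjusted p below 0.001 and a log2 change of more than 1.5 in size, as in the study. The fit was tested on simulated data. Replicates are described as biological triplicates, each of 24 pooled organoids of 1 line, so p-values measure the spread between such pools. The same replicate numbers showed no common pairing: correlations of same-numbered deviations averaged −0.00054 over 28 pairs of groups. The means of single pairs of groups ran from −0.11 to 0.23 (day 3 and day 5 GFP-negative). Between the gates they were −0.06 on day 4 and 0.03 on day 5, although per the study's methods samples were split by GFP on these days. All 9 members were named in every library. Of further lists, counts are given with at most 3 rises and 3 falls by name, and all HIF and oxygen-sensing genes. Some genes that this rule or the likeness search gave are not reported here. The members and lists were chosen with earlier results of these data known. Alternatives were the pseudocount, filter, scaling, trend, block, samples fitted, threshold and leaving out each library. Figures used Python 3.11.15 and matplotlib 3.10.9.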

Additional observations from a re-analysis of the deposited data

Results flagged for a closer look

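The difference between the gates changed from day 4 to day 5 for Pdk1, as tested by the interaction term of the limma fit. The GFP-positive minus GFP-negative difference was −1.64 on the log2 scale on day 4 and −0.84 on day 5, a change of 0.80 ± 0.12 (Benjamini-Hochberg adjusted p = 0.00086), and 0.109% of all genes were called in this comparison. The GFP-positive groups lay apart, at 1364 to 1509 on day 4 and 2319 to 2381 on day 5, while the GFP-negative libraries overlapped, at 3988 to 4773 and 4008 to 4381. The change was under the fold threshold of 1.5, so it was not called. The other 8 members did not pass this test.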

How the results depend on the processing

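No change of any member that had an adjusted p under 0.05 turned direction under an alternative. Of 242 recomputed counts of called members, 225 stayed within 1.5 times the main count. These include main counts of 0 that stayed at 0, so the total says little of the comparisons with calls. Several counts against day 0 moved, as given below. At an adjusted p under 0.05 with no fold threshold the counts were 6 for day 1 against day 0, 2 for day 2 against day 1, 1 for day 3 against day 2 and 6 for day 3 against day 0 (43.6% of all genes). They were 6 and 3 for day 4 against day 3 in GFP-positive and GFP-negative cells, 2 and 1 for day 5 against day 4 (9.8% and 10.2% of all genes), 4 and 3 between the gates on days 4 and 5, 8 for GFP-negative cells on day 5 against day 0 (59.3%) and 1 for the change of the gate difference (1.1%). Fitting only the groups compared gave 0 calls for day 3 against day 0, and 1 and 3 for the GFP-negative and GFP-positive groups of day 5 against day 0, with fewer samples to estimate the spread. The share of all genes called in these fits was not computed. Leaving out 1 library at a time gave 0 to 2 calls for day 1 against day 0, 2 to 2 for day 3 against day 0, 2 to 3 for day 4 GFP-positive cells against day 3, 2 to 4 and 3 to 5 for the GFP-negative and GFP-positive groups of day 5 against day 0, and 3 to 4 for GFP-positive cells on day 5 against day 1. The highest count for day 1 against day 0 came without day 0 replicate 3, and the lowest for GFP-positive cells on day 5 against day 0 without day 0 replicate 1. In the other 9 comparisons the count stayed at its main value. With a replicate block, day 4 GFP-positive cells against day 3 had 3 calls in place of 2, and no other count changed, although the numbers showed no common pairing. Leaving out day 0 replicate 1 from comparisons it is not part of was added after seeing the data, and gave 3 calls for day 4 GFP-positive cells against day 3.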
